A study of Mus musculus with 18 samples.

Results

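The genes described here are 10 transcripts that the RAS/MAPK cascade is known to switch on, measured on 18 arrays of mouse medulloblastomas, which are tumours of the cerebellum. They were chosen by symbol, all 10 of 10 were on the array, and they are set beside the 19938 named genes measured. They are the Sprouty and Spred inhibitors Spry1, Spry2, Spry4 and Spred1, the MAP kinase phosphatases Dusp4 and Dusp6, the PEA3-group ETS transcription factors Etv1, Etv4 and Etv5, and the zinc finger transcription factor Egr1. Each gene is read from 1 probe set, the one with the highest mean where there were several.

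RNA was hybridized to Affymetrix mouse Gene ST arrays, 1 array for each sample. The groups were GFD-Smo;GFAP-cre (n = 4) and NG-Smo;Atoh1-CreER (n = 4), called GFD-Smo and NG-Smo here, and GFI-Ptch (n = 4), GFD-Ptch (n = 2) and NG-Ptch (n = 4). GFD, GFI and NG are tumour subtypes whose names the labels do not spell out, and Ptch and Smo are given there without the allele, the age of the mice or any agent. Ptch1 is the receptor that restrains the Hedgehog transducer Smo. Atoh1-CreER is a drug-inducible recombinase driven by a granule neuron progenitor gene and GFAP-cre is driven by a glial gene, so among the Smo tumours each subtype came with its own Cre driver. The group names give no Cre driver for the Ptch tumours, so model and driver cannot be told apart where Smo and Ptch tumours are compared. GFI-Ptch replicate 4 is labelled as a tumour that progressed from another one in an NSG female host, an immunodeficient mouse, and is called the transplanted tumour. No labelled allele or treatment was shared by all groups.

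Receptor tyrosine kinases such as the FGF, EGF and PDGF receptors activate RAS, which drives the kinases RAF, MEK and ERK in turn. ERK activity induces its own brakes: Sprouty and Spred proteins act on the signal from receptor to RAF, and Dusp4 and Dusp6 remove phosphate from MAP kinases. ERK also raises transcription of the PEA3-group factors, most closely downstream of FGF receptors, and of the immediate early gene Egr1. For this reason the transcript levels of these genes are widely used as a readout of the cascade, which is not the same as a measurement of kinase activity. In the cerebellum, granule neuron progenitors are the cells from which Hedgehog-driven medulloblastoma arises.

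All values are log2 levels as deposited, and changes are log2 differences from 1 limma fit over all genes and arrays with their standard error (SE). Genes with an adjusted p under 0.05 were called, and group values are means with the SD. Whether each replicate was another animal is not stated in the labels, and the p-values then reflect the spread between these arrays, which may be technical. Replicates correlated across genes at 0.970 to 0.998. The transplanted tumour had the lowest mean correlation with its group (0.9724), and NG-Smo replicate 4 correlated about as well with other groups (0.9844) as with its own (0.9846). GFI-Ptch replicates 1, 2 and 3 correlated with other groups at 0.9836, 0.9875 and 0.9844 and with their own, the transplanted tumour included, at 0.9832, 0.9849 and 0.9843. Y-linked transcripts went against the gender label in 3 of the 13 arrays that had one (the transplanted tumour and GFD-Smo replicates 2 and 3), and they were present in both GFD-Ptch arrays and in no NG-Ptch array. Markers of granule neuron progenitors (9 genes, Atoh1, Barhl1 and Gli1 among them) averaged between 11.13 and 11.65 in every array, against array medians of 7.736 to 7.868. Etv4 and Egr1 lay near those medians, and the files give no detection call.

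The clearest difference among the members lay between the Smo and the Ptch tumours of the GFD subtype. Etv4, Spry2 and Dusp6 were higher in GFD-Smo than in GFD-Ptch, and all 10 members had a positive difference, with a median of 0.39 against -0.06 over all genes. These 3 of 10 members called compare with 8.5% of all genes called higher there and 15.6% called in either direction. At an unadjusted p under 0.05 there were 5 members, where 33.3% of all genes were. With each array centred on its median the same 3 members were called, where 6.95% of all genes were called higher and 34.2% in either direction. The higher share of all calls was 20.4% then and 54.5% as deposited. The comparison rests on 2 GFD-Ptch arrays, and it cannot tell the model from the GFAP-cre driver of GFD-Smo.

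Etv4 (probe set 10391490) is an ETS factor of the PEA3 group. It stood at 8.37, 8.28, 8.42 and 8.29 in GFD-Smo, against 7.42 and 7.52 in GFD-Ptch. The arrays of the groups were far apart, and the means were 8.34 ± 0.07 and 7.47 ± 0.07 (SD, n = 4 and n = 2). The difference was 0.87 (SE 0.14, adjusted p = 0.00101), a ratio of 1.83. It stayed past the threshold without any 1 of the 18 arrays (adjusted p of 5.17e-05 to 0.0187).

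Spry2 (10422227), an inhibitor of receptor tyrosine kinase signalling, showed the same order. It read 8.66, 8.77, 8.60 and 8.91 in GFD-Smo, against 7.96 and 7.88 in GFD-Ptch. No array of one group reached the other. The means were 8.74 ± 0.14 and 7.92 ± 0.06 (SD, n = 4 and n = 2), a difference of 0.81 (SE 0.15, adjusted p = 0.00173) and a ratio of 1.76, with an adjusted p of 0.000273 to 0.0334 when each array was left out.

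The window around the start of Spry2 is shown because, among the called members, it held the searched motif. It is chr14:105896770-105897069 of GRCm38.p6, minus strand, from RefSeq, 250 bases before to 50 after the start, with the ETS core CCGGAA in capitals, which begins 34 bases into the transcript.
Spry2: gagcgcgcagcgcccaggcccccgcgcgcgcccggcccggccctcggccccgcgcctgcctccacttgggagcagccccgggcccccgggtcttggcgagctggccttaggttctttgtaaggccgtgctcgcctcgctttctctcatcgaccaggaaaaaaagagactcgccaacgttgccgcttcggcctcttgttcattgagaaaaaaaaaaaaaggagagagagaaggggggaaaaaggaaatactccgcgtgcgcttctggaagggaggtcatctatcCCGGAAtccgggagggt
RefSeq windows were at hand for 6 of the 10 members (8 windows, of Spry1, Spry2, Spred1, Dusp6, Etv1 and Etv5), and were searched on both strands for CCGGAA, for the Capicua octamer TGAATGAA and for the AP-1 motif TGANTCA. None of the motifs contains another. The Spry2 site was the 1 match found, where 14.9% of all 32817 promoter windows hold CCGGAA, 1.3% hold TGAATGAA and 7.81% hold TGANTCA. A match is a run of letters and not a bound site.

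Dusp6 (10366043), the phosphatase that acts on ERK, read 10.08, 9.93, 9.96 and 10.04 in GFD-Smo, against 9.57 and 9.15 in GFD-Ptch. Again the groups did not overlap, although the GFD-Ptch arrays lay further from each other than the GFD-Smo arrays did. The difference was 0.64 (SE 0.19, adjusted p = 0.0308), a ratio of 1.56. Dusp6 lost its call without GFD-Ptch replicate 2 (0.43, adjusted p = 0.363), without GFD-Smo replicate 1 (0.0634), 3 (0.0531) or 4 (0.0574), and with the Y-linked level as a covariate (0.64, adjusted p = 0.0665).

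The other members had smaller or more variable differences between GFD-Smo and GFD-Ptch. Spry4 (10458555), another Sprouty inhibitor, lay at 8.71, 8.94, 8.82 and 9.02 in GFD-Smo, against 8.35 and 8.33 in GFD-Ptch (difference 0.54, SE 0.20, adjusted p = 0.0849). Its arrays did not overlap, yet it was not called, and it passed without NG-Smo replicate 3 (adjusted p = 0.0105), an array outside the comparison that sets the shared spread. Spred1, which restrains RAS activation, missed the threshold (0.37, adjusted p = 0.0571) and passed with quantile normalization (0.31, adjusted p = 0.0409), without GFI-Ptch replicate 3 (0.0449), the transplanted tumour (0.0195) or NG-Smo replicate 4 (0.0366). The remaining 5, Spry1, Dusp4, Etv1, Etv5 and Egr1, differed by 0.13 to 0.40. In all, 7 members had arrays that did not overlap, all of them higher in GFD-Smo, where 23.4% of all genes were apart in that direction and 33.7% in the other.

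Genes of glia moved in the same comparison. Of the 9 astrocyte markers 8 were called higher in GFD-Smo, and their mean level per array was 11.17 to 11.32 in GFD-Smo and 8.83 to 8.98 in GFD-Ptch. Of the 8 oligodendrocyte progenitor markers 4 were called higher (mean level 10.15 to 10.35 in GFD-Smo and 8.86 to 9.02 in GFD-Ptch), as were 4 of 9 microglia and macrophage markers, 2 of 8 fibroblast and pericyte markers, 1 of 7 endothelial and 1 of 6 oligodendrocyte markers. Differentiated neuron markers had 2 called higher and 1 lower of 8, and of the 9 granule neuron progenitor and 9 muscle markers none was called by limma. All 9 muscle markers still had a difference above 0, as had 2 of the 9 granule neuron progenitor markers. The muscle markers averaged 7.776 to 8.037 in GFD-Smo and 7.229 to 7.355 in GFD-Ptch. The part of any of these lists in the members' differences was not tested. In tissue, fewer cells of a type and less RNA per cell cannot be told apart.

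**Figure D1:**
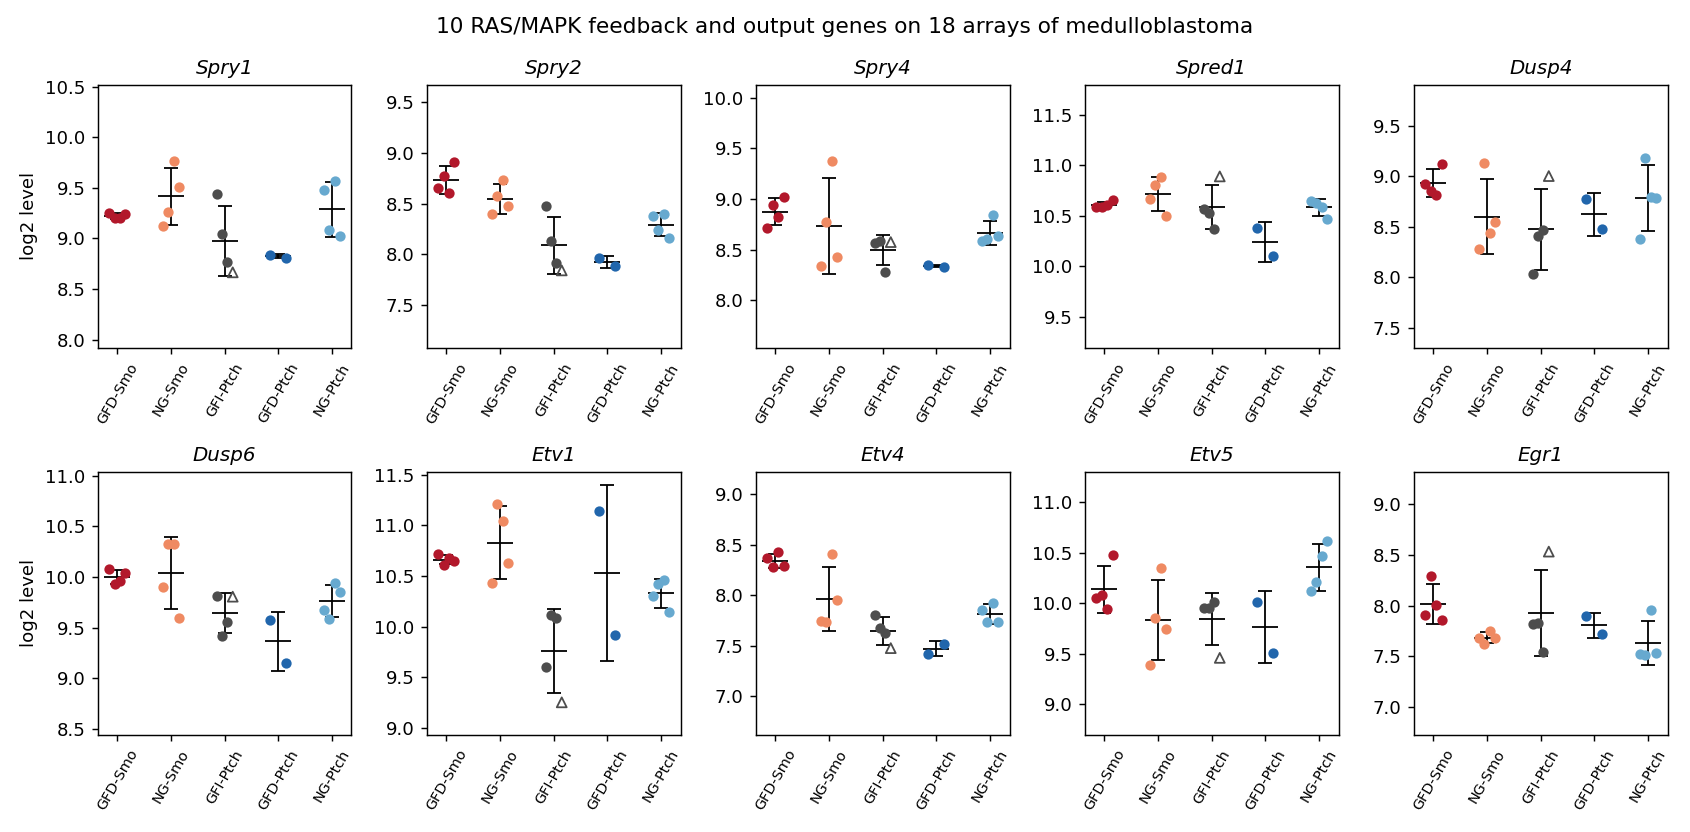
Log2 level of each of the 10 members (vertical axis, one panel a gene, all panels with the same span) in each array of the 5 groups; points are arrays, the open triangle is the transplanted tumour, and the bar is the group mean with its SD. Etv4 lay at 8.28 to 8.42 in GFD-Smo and at 7.42 to 7.52 in GFD-Ptch.

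The Smo tumours were compared by subtype next, GFD-Smo with NG-Smo, where subtype and Cre driver cannot be told apart. No member was called by limma (0 of 10, and 1 at an unadjusted p under 0.05), while 5.31% of all genes were called (53% of them higher, or 41% with each array centred on its median) and 15.9% had an unadjusted p under 0.05. The median change of the members was 0.17, against -0.01 over all genes. Etv4 came nearest, at 0.38 (SE 0.12, adjusted p = 0.080). In NG-Smo it read 7.74, 7.73, 8.41 and 7.95, so replicate 3 alone lay within the GFD-Smo range and the other 3 arrays lay below it. Without that array Etv4 was called (0.53, adjusted p = 0.00158).

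NG-Smo replicate 3 was also the highest of its group for Spry1 (9.77), Spry2 (8.74), Spry4 (9.38), Spred1 (10.88) and Etv5 (10.35). Its group therefore had a wide spread for Spry4, with 8.34, 8.78 and 8.43 in the other 3. Egr1 (10454782) was the 1 member whose arrays did not overlap between these groups, where 5.99% of all genes were apart and higher and 6.59% apart and lower. It stood at 7.91, 8.30, 8.0 and 7.86 in GFD-Smo, against 7.68, 7.62, 7.75 and 7.68 in NG-Smo (difference 0.33). The gap between the groups was small beside the spread of Egr1 in GFI-Ptch, and it was not called. In the same comparison 5 of 9 astrocyte markers (mean level 11.17 to 11.32 in GFD-Smo and 9.71 to 10.13 in NG-Smo) and 4 of 8 fibroblast and pericyte markers were called higher in GFD-Smo, and 3 of 9 microglia and macrophage markers lower, whose part was not tested.

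Ptch tumours of the GFD and NG subtypes gave no call, and most members had lower values in GFD-Ptch. This comparison shares the 2 GFD-Ptch arrays with the one above, so they are not independent. Of the 10 members 8 were below 0, and their median change was -0.34, against 0.04 over all genes. By limma 0 of 10 were called, as were 0.01% of all genes, and 6 members had an unadjusted p under 0.05, as had 16.9% of all genes. The arrays of the groups did not overlap for 7 members, Spry1, Spry2, Spry4, Spred1, Dusp6, Etv4 and Etv5, all lower in GFD-Ptch (6 members by the other probe set of Etv5, where the groups overlapped), where 14% of all genes were apart in that direction and 20.6% in the other.

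Etv5 (10363901), an ETS factor of the PEA3 group, had the largest difference of these. It read 10.01 and 9.51 in GFD-Ptch, against 10.12, 10.20, 10.47 and 10.61 in NG-Ptch. The higher GFD-Ptch array came close to the lowest NG-Ptch array. The difference was -0.59 (SE 0.24, adjusted p = 0.253), and -0.34 without GFD-Ptch replicate 2. Spry1 differed by -0.46, Dusp6 by -0.40, Spry2 by -0.37 and Spred1 by -0.34. Spred1 was called (adjusted p = 0.0445) when the transplanted tumour and NG-Smo replicate 4 were both left out, a fit added after the data were seen. GFD-Ptch and NG-Ptch also differed in Y-linked transcripts in every array, and astrocyte markers averaged 8.83 to 8.98 in GFD-Ptch and 9.86 to 9.94 in NG-Ptch. Oligodendrocyte progenitor markers averaged 8.86 to 9.02 in GFD-Ptch and 9.81 to 10.29 in NG-Ptch, and microglia and macrophage markers 8.75 to 9.14 and 9.24 to 9.68. All 9, 8 and 9 markers of these lists had a difference below 0, and 0 of them were called by limma. Other lists went the other way, also with 0 calls. Endothelial markers averaged 8.304 to 8.379 in GFD-Ptch and 7.802 to 8.299 in NG-Ptch, with 7 of 7 above 0. Fibroblast and pericyte markers averaged 8.704 to 9.0 and 8.444 to 8.653, with 6 of 8 above 0. Above 0 were also 8 of 9 muscle, 5 of 8 differentiated neuron, 4 of 9 granule neuron progenitor and 1 of 6 oligodendrocyte markers. The part of any of these in the members' values was not tested. With the Y-linked level as a covariate no member was called either, but that fit had no call to remove.

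Whether the step between the subtypes differed between the models was tested directly, as GFD minus NG in Smo tumours minus GFD minus NG in Ptch tumours. The Smo step also changes the Cre driver, and the group names give none for the Ptch tumours. The test therefore cannot tell model from driver. Etv4 was the 1 member called (0.73, SE 0.19, adjusted p = 0.0426), where 2.4% of all genes were called in that direction and 3.81% in either. The higher share of all calls was 63.1%, and 35.3% with each array centred on its median, where Etv4 stayed called (0.65, adjusted p = 0.0468). Its step was 0.38 in Smo tumours and -0.34 in Ptch tumours. The call was narrow. It held without GFI-Ptch replicate 1, the transplanted tumour or NG-Smo replicate 3, and was lost without any 1 of the other 15 arrays, with an adjusted p of 0.00191 to 0.134 and a difference of 0.65 to 0.88 over the 18 fits, and was lost with the Y-linked level as a covariate (0.80, adjusted p = 0.105).

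Other members pointed the same way without passing. The difference between the models was 0.89 for Etv5 (SE 0.30, adjusted p = 0.122) and 0.56 for Spry2 (SE 0.19, adjusted p = 0.116). Without NG-Smo replicate 3, Etv5 (1.07, adjusted p = 0.042) and Spry4 (0.69, adjusted p = 0.0344) were called, and without GFI-Ptch replicate 1 so was Spry2 (adjusted p = 0.0431). Etv1 was the 1 member below 0 (-0.36), and over all members the median was 0.42, against -0.06 over all genes.

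**Figure D2:**
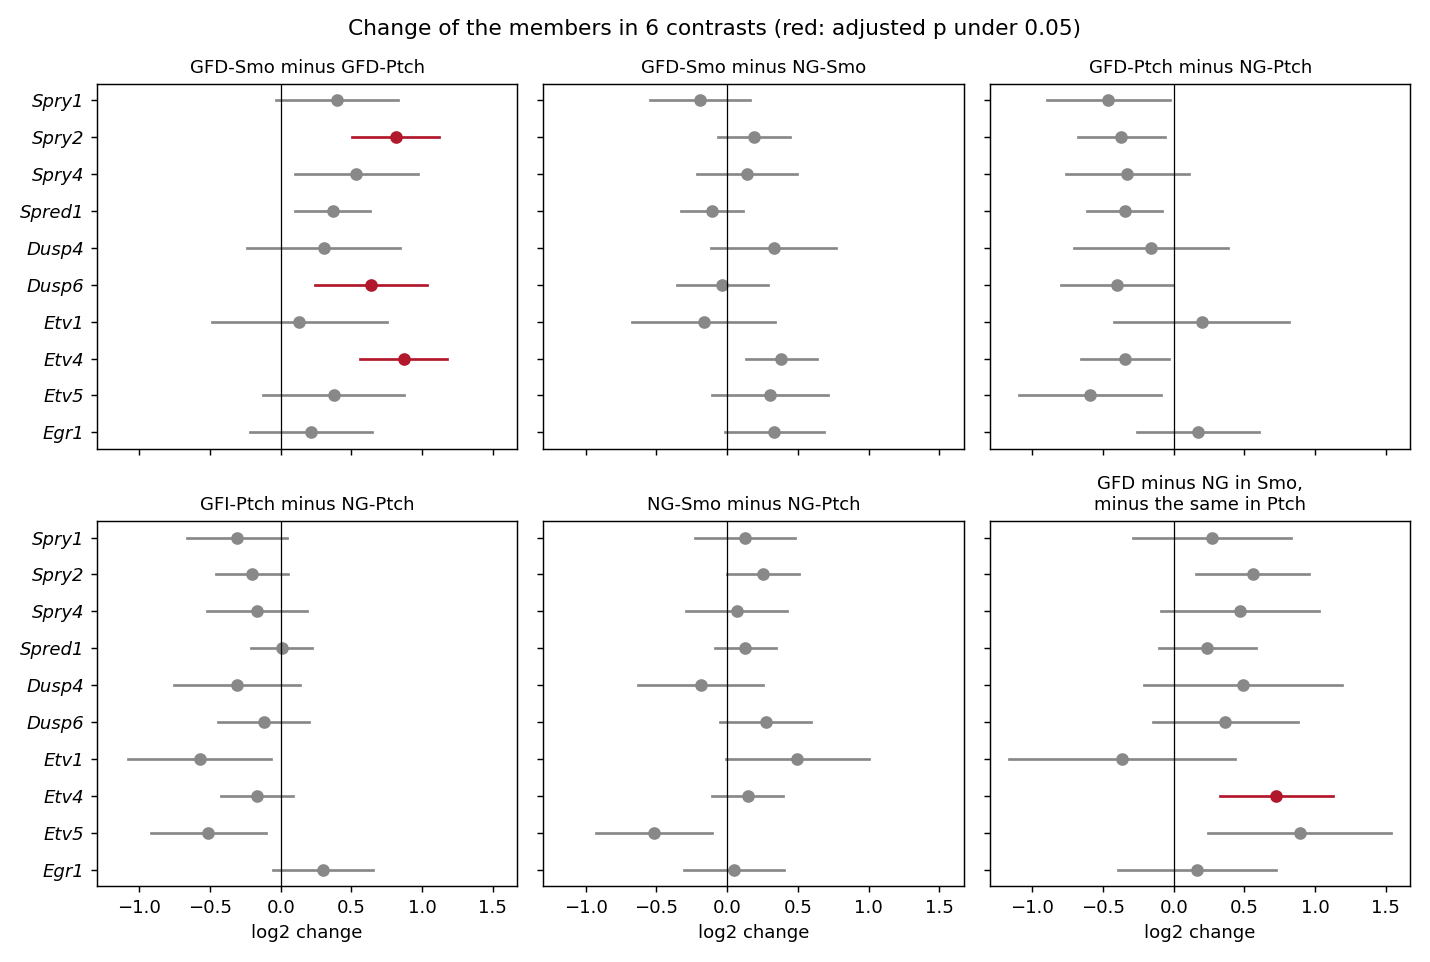
Log2 change of each member (horizontal axis) with its 95% confidence interval from the limma fit, in 6 contrasts named above the panels; red marks an adjusted p under 0.05. Etv4, Spry2 and Dusp6 are red in GFD-Smo minus GFD-Ptch, and Etv4 in the difference between models.

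GFI-Ptch was compared with NG-Ptch and with GFD-Ptch. By limma 0 of 10 members were called in either comparison, as were 0.0% of all genes against NG-Ptch and 0.00502% against GFD-Ptch. At an unadjusted p under 0.05 there were 2 members in each, where all genes gave 8.53% and 9.79%. The median change of the members was -0.19 against NG-Ptch and 0.16 against GFD-Ptch, and over all genes it was 0.02 and -0.02. Oligodendrocyte progenitor markers averaged 7.76 to 9.82 in GFI-Ptch, against 9.81 to 10.29 in NG-Ptch, and differentiated neuron markers 9.004 to 9.565, against 9.74 to 10.12. All 8 markers of each list had a difference below 0 from NG-Ptch (medians -1.15 and -0.55), and 0 were called by limma. From GFD-Ptch, all 9 astrocyte, 9 microglia and macrophage and 6 oligodendrocyte markers had a difference above 0 (medians 0.629, 0.473 and 0.268). So had all 9 muscle markers, a list far higher in the transplanted tumour than in the other GFI-Ptch arrays. Of 7 endothelial markers 1 was above 0 (median -0.498), as were 2 of 8 fibroblast and pericyte and 2 of 8 differentiated neuron markers. None of these was called, and the part of any list in the members' values was not tested. Against NG-Ptch, 3 members, Spry4, Etv1 and Etv5, had arrays that did not overlap and were lower in GFI-Ptch, where 2.8% of all genes were, with 2.05% apart and higher. By the other probe set of Etv5 the groups overlapped, which leaves 2 members. Against GFD-Ptch no member's arrays were apart, where 6.98% of all genes were apart and higher and 9.48% apart and lower.

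Etv1 (10406934), an ETS factor of the PEA3 group, was lowest in GFI-Ptch of the 5 groups, at 9.60, 10.11, 10.08 and 9.25. In NG-Ptch it read 10.30, 10.42, 10.46 and 10.14 and in GFD-Ptch 11.14 and 9.92. The GFD-Ptch arrays lay on either side of all 4 NG-Ptch arrays. Against NG-Ptch the difference was -0.57 (SE 0.24, adjusted p = 0.524), and -0.40 without the transplanted tumour. Against GFD-Ptch it was -0.77 (SE 0.29, adjusted p = 0.41), but -0.16 without GFD-Ptch replicate 1 and -1.38 without GFD-Ptch replicate 2, so 1 array set its size. In both Smo groups Etv1 was higher, at 10.72, 10.61, 10.67 and 10.65 in GFD-Smo and 10.43, 11.21, 11.05 and 10.63 in NG-Smo.

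Etv5 stood at 9.95, 9.95, 10.01 and 9.46 in GFI-Ptch, the last in the transplanted tumour, and its difference from NG-Ptch was -0.51 (SE 0.19, adjusted p = 0.463), or -0.38 without that tumour. Spry4 differed by -0.17, with 8.56, 8.58, 8.27 and 8.57 in GFI-Ptch, against 8.59, 8.60, 8.84 and 8.63 in NG-Ptch. The groups were barely apart for Spry4, and none of these differences was called.

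Of the 10 members 5 were at their highest or lowest of the 18 arrays in the transplanted tumour, where 28% of all genes were (13.2% highest and 14.8% lowest). Egr1 (8.53) and Spred1 (10.89) were higher there than in any other array, while Spry1 (8.66), Spry2 (7.84) and Etv1 (9.25) were lower there than in any other. Egr1 read 7.81, 7.82 and 7.54 in the other GFI-Ptch arrays. Of 13 other immediate early genes Junb (7.86), Ier2 (7.66), Btg2 (11.15) and Dusp1 (10.99) were also at their highest in that array, and Fos (7.53) was not. That array further had the highest mean of the 9 muscle markers (10.004, against 7.11 to 7.265 in the other GFI-Ptch arrays). It had the lowest mean of the 18 arrays for markers of oligodendrocyte progenitors (7.76), astrocytes (8.537) and granule neuron progenitors (11.13). The same held for oligodendrocytes (7.711) and differentiated neurons (9.004), but not for the microglia, endothelial or fibroblast lists. The part of these in the members' levels was not tested.

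The Smo and Ptch tumours of the NG subtype were compared last. No member was called by limma (0 of 10, with 2 at an unadjusted p under 0.05), where 1.04% of all genes were called and 10.6% had an unadjusted p under 0.05, and no member's arrays were apart, where 2.97% of all genes were apart and higher and 2.68% apart and lower. By its other probe set Etv1 was apart and higher in NG-Smo, at 10.10 to 10.80, against 9.77 to 9.99 in NG-Ptch. Etv5 was lower in NG-Smo by value, at 9.39, 9.85, 10.35 and 9.74, against 10.12, 10.20, 10.47 and 10.61 in NG-Ptch. The groups overlapped through NG-Smo replicate 3 (difference -0.52, SE 0.19, adjusted p = 0.293). The other 9 members differed by -0.19 to 0.50, the last being Etv1. The members' median was 0.13, against 0.01 over all genes, and 3 of 9 microglia and macrophage markers were called higher in NG-Smo. All 9 of these had a difference above 0, as had 6 of 6 oligodendrocyte and 7 of 7 endothelial markers. Granule neuron progenitor markers averaged 11.172 to 11.414 in NG-Smo and 11.556 to 11.652 in NG-Ptch, with 1 of 9 above 0. Of the 8 differentiated neuron markers 1 was above 0. The part of these lists in the members' values was not tested.

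Etv1 and Etv5 each had a second probe set, and the choice between them is open to question. On this array the probe set numbers run by chromosome: for each of the other 8 members, 19 or 20 of the 20 nearest named probe sets lie on the gene's own chromosome (RefSeq, GRCm38.p6). The Etv1 probe set used here sits among genes of chromosome 13 (18 of 20 neighbours), while Etv1 is on chromosome 12, and the Etv5 probe set sits among genes of chromosome 10 (20 of 20), while Etv5 is on chromosome 16. The lower probe sets, 10395457 for Etv1 and 10438626 for Etv5, sit among genes of the right chromosome (20 and 19 of 20). Whether the higher ones also read a copy of the gene elsewhere was not tested.

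The probe sets of each gene followed each other closely. Across the 18 arrays they correlated at 0.984 for Etv1 and 0.911 for Etv5 (0.966 without the transplanted tumour), as a description over arrays that share groups. With the lower probe set, Etv1 differed by -0.57 between GFI-Ptch and NG-Ptch and by -0.72 between GFI-Ptch and GFD-Ptch. Etv5 differed by -0.47 between GFD-Ptch and NG-Ptch, by -0.35 between GFI-Ptch and NG-Ptch, and by 0.90 (adjusted p = 0.161) between the models. No call of either gene changed. The ranks were not the same throughout. The groups overlapped by the lower probe set of Etv5 in GFD-Ptch against NG-Ptch and in GFI-Ptch against NG-Ptch, and were apart by the one used. In the order of group means GFD-Ptch was lowest for Etv5 by the probe set used, and NG-Smo by the other. In the transplanted tumour Etv5 was the lowest of GFI-Ptch by the probe set used (9.46) and inside the group by the other (9.17, against 9.04, 9.27 and 9.37).

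**Figure D3:**
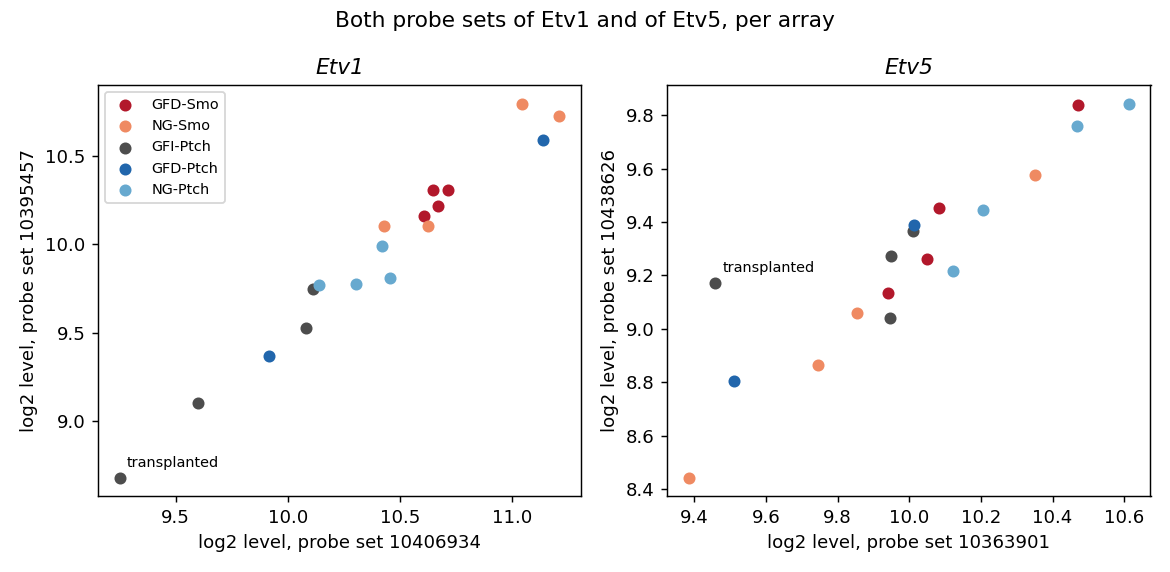
Log2 level by the probe set used (horizontal axis) and by the other probe set (vertical axis) of Etv1 and of Etv5, 1 point for each of the 18 arrays, coloured by group. The transplanted tumour is off the line of the other arrays for Etv5 and on it for Etv1.

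Ordered by level, the groups did not form the same series for every member. Spry2 and Etv4 shared 1 order, GFD-Smo, NG-Smo, NG-Ptch, GFI-Ptch and GFD-Ptch from high to low, and every neighbouring pair in it overlapped. Spry4 had that order too, with NG-Ptch and GFI-Ptch apart. Dusp6 and Spry1 were highest in NG-Smo (10.04 ± 0.36 and 9.42 ± 0.29, SD, n = 4) and lowest in GFD-Ptch (9.36 ± 0.30 and 8.82 ± 0.02, SD, n = 2), with all neighbours overlapping. Spred1 was lowest in GFD-Ptch (10.24 ± 0.20), apart from NG-Ptch above it (10.58 ± 0.08). Dusp4 was highest in GFD-Smo (8.93 ± 0.14) and lowest in GFI-Ptch (8.48 ± 0.40), where its arrays ran from 8.03 to 9.0. Etv5 was highest in NG-Ptch (10.35 ± 0.23) and Egr1 in GFD-Smo (8.02 ± 0.19).

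Within groups some members varied together. Taking each array's deviation from its group mean over the 18 arrays, the 45 pairs of members had correlations from -0.539 to 0.849 with a median of 0.269, and 37 were above 0. These describe arrays that share tissue and array-wide effects. Spry1 and Spry2 were the closest pair (Pearson r 0.849, Spearman rho 0.812), followed by Spry1 and Etv4 (0.801, 0.809). Dusp4 ran against Spry1 (-0.539, -0.421) and Etv4 (-0.502, -0.589). Spred1 and Egr1 had r of 0.598 with the transplanted tumour and 0.213 without it.

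Among 18560 other named genes, those whose levels over the 18 arrays were most like the mean standardized level of the members were Cacng4 (r 0.929), Tprgl (0.929), the FGF receptor relative Fgfrl1 (0.923), Raly (0.922) and Ankrd40 (0.915). For Dusp6 alone they were Nubp2 (0.920), Trib2 (0.908) and Klf6 (0.899). For Spry4 they were Tmem234 (0.886), Mrpl27 (0.873) and Borcs7 (0.866). For Etv5 they were Ctdsp2 (0.838), Kctd15 (0.798) and Cnnm3 (0.797), and for Egr1 they were Hdac11 (0.886), Nme5 (0.886) and Dhrs11 (0.880). The Egr1 values fell to 0.793, 0.841 and 0.820 without the transplanted tumour. These are descriptions over arrays of 5 groups, picked as the highest of many.

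Other genes of the pathway went both ways. Of 17 further feedback and output genes, 2 were called higher and 2 lower in GFD-Smo than in GFD-Ptch, with a median of -0.11, against -0.06 over all genes. The ephrin receptor Epha4 (0.89, adjusted p = 0.0022) and the FGF signalling inhibitor Il17rd (0.74, adjusted p = 0.00346) were higher. The phosphatase Dusp5, which acts on ERK in the nucleus, was lower, at 9.30 ± 0.06 in GFD-Smo and 10.42 ± 0.30 in GFD-Ptch (SD, n = 4 and n = 2; difference -1.13, adjusted p = 0.00209), as was Ier3 (-0.49, adjusted p = 0.044). Spry3, a further Sprouty gene, was not called but ran against Spry1, Spry2 and Spry4, at 8.142 to 8.841 in GFD-Smo and 8.865 to 9.272 in GFD-Ptch. Of the 17 genes 8 had a difference above 0 there. In GFD-Smo against NG-Smo the list gave 1 call higher, Epha4 (0.59, adjusted p = 0.0179), and 2 lower, Dusp5 (-0.67, adjusted p = 0.0303) and Ier3 (-0.50, adjusted p = 0.0277). Ccnd1, a cyclin raised by many growth signals, differed by -0.11 and -0.26 in these comparisons, without a call.

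The upstream receptors and ligands that were called were mostly higher in GFD-Smo. Of 15 receptor tyrosine kinases 5 were called higher in GFD-Smo than in GFD-Ptch and 3 higher in GFD-Smo than in NG-Smo, with none called lower in either. Of all genes 8.5% were called higher against GFD-Ptch (15.6% in either direction) and 2.81% against NG-Smo (5.31% in either direction). The list medians were 0.35 and 0.24, against -0.06 and -0.01 over all genes. Fgfr3, an FGF receptor that astrocytes express too, stood at 9.23 ± 0.13 in GFD-Smo, 7.96 ± 0.14 in NG-Smo and 7.60 ± 0.23 in GFD-Ptch (SD, n = 4, 4 and 2), and was called against both (1.27, adjusted p = 0.000902, and 1.63, adjusted p = 0.000359). Fgfr2 was higher in GFD-Smo than in GFD-Ptch by 2.02 (adjusted p = 0.00179), Kit by 1.12 (adjusted p = 0.00808) and Erbb2 by 0.66 (adjusted p = 0.0112). Fgfr1, Egfr and Pdgfra were not called in either comparison, with differences of 0.34, 0.01 and 0.00 from GFD-Ptch. Among 21 measured ligands 4 were called higher and 1 lower in GFD-Smo than in GFD-Ptch, with Pdgfd (1.39) and the EGF receptor ligand Hbegf (1.07) furthest up and Nrg1 (-0.44) down. Of the 21 ligands 9 had a difference above 0 there, and the list median was -0.025, against -0.06 over all genes.

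The core of the cascade moved little. Of 24 listed kinases, RAS proteins and adaptors 16 were measured, and 1 was called in GFD-Smo against GFD-Ptch, with a median of 0.00 over the list. That gene was the RAF kinase Braf, lower in GFD-Smo, at 10.92 ± 0.13 against 11.73 ± 0.24 in GFD-Ptch (SD, n = 4 and n = 2; difference -0.81, adjusted p = 0.000741) and 11.38 ± 0.13 in NG-Smo (n = 4; difference -0.46, adjusted p = 0.0173). Of the 13 immediate early genes Arc was the 1 called in GFD-Smo against GFD-Ptch (-0.34, adjusted p = 0.0111), and Egr2 in NG-Smo against NG-Ptch (-0.43, adjusted p = 0.0418), both lower. In the Ptch comparisons no gene of these lists was called by limma.

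**Figure D4:**
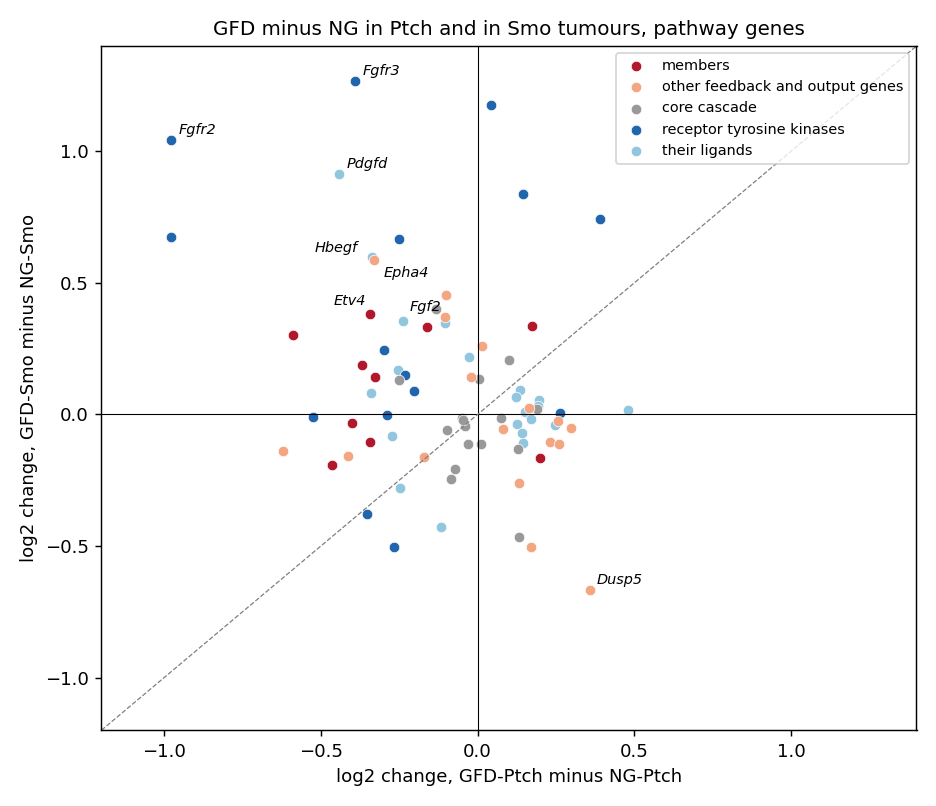
Log2 change GFD-Ptch minus NG-Ptch (horizontal axis) and GFD-Smo minus NG-Smo (vertical axis) for the members, the other pathway genes, receptors and ligands; the dashed line marks equal change, and names mark genes whose difference between the models had an adjusted p under 0.05. Etv4 lies at -0.34 and 0.38.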

How the data were processed

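RNA had been extracted with Trizol from tumour tissue, made into biotin-labelled cDNA and put on 1-colour Affymetrix arrays, per the labels' protocols. The authors deposited log2 values for 35556 probe sets and 18 arrays, between 4.219 and 14.32, with none missing, and the base was read from the values. Per the submitters' processing notes Partek 6.6 was used, and background correction, probe summary and scaling are not given in the sources used here. The number of arrays limits the precision.

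Probe sets with 1 symbol (21789 of 35556, with 1621 of several symbols and 12146 without one) were kept, and the one with the highest mean stood for a gene, which left 19938 genes. A single limma fit (3.58.1, R 4.3.3) held all arrays (5 group means, 13 residual and 2.448 prior degrees of freedom), 7 contrasts were tested two-sided, with Benjamini-Hochberg adjustment over all genes. The fit was tested on simulated data. Plots were drawn with Python 3.11.15.

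All 10 members are named. A change with its test is given where the adjusted p was under 0.05 or the change was at least 0.5, and, chosen after their values were seen, for Etv4 in GFD-Smo minus NG-Smo and Spred1 in GFD-Smo minus GFD-Ptch. Other members' values are description. Of other lists, up to 4 genes by change were named, with Fgfr1, Fgfr3, Egfr, Pdgfra, Ccnd1 and Fos, and the rest were chosen after their values were seen. Genes most alike were ranked by Pearson correlation, without predicted loci. The members and lists were chosen with earlier results of these data known. The alternatives were quantile normalization, median centring, a filter at a group mean of 7, the mean over probe sets, the Y-linked level (Eif2s3y, Kdm5d and Uty) as a covariate, the replicate number as a block and each array left out, and, added after the data were seen, the other probe sets of Etv1 and Etv5 and the transplanted tumour and NG-Smo replicate 4 both left out.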

Additional observations from a re-analysis of the deposited data

Results flagged for a closer look

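Single arrays that stood apart from the other 3 of their group by Dixon's 95% limit were Spry4 in GFI-Ptch replicate 3 (8.275, low), Etv5 in GFI-Ptch replicate 4, the transplanted tumour (9.459, low, by the probe set used and not by the other), and Egr1 in NG-Ptch replicate 4 (7.961, high). These were 3 of 48 sets of 4 arrays tested, and chance flags about 1 in 20.

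The step from NG to GFD differed between Smo and Ptch tumours by the test of the difference for Etv4 (0.73) and for 7 other pathway genes. These were the receptors Fgfr2 (2.02) and Fgfr3 (1.66), the ligands Pdgfd (1.36), Hbegf (0.93) and Fgf2 (0.59), the ephrin receptor Epha4 (0.91), and the phosphatase Dusp5. Dusp5 was the 1 whose step was lower in Smo than in Ptch tumours (-1.02). The genes searched were the 10 members and 5 further pathway lists of 17, 16, 15, 21 and 13 measured genes. Over all genes 3.81% were called in this test. In the same test 7 of 9 astrocyte markers were called, and their part in these differences was not tested.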

How the results depend on the processing

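The 12 member changes with an adjusted p under 0.05 or a size of at least 0.5 were followed over the refits, in 312 comparisons. They kept their direction in all of these, and 286 stayed on the same side of the threshold. Many of the comparisons could not reverse: leaving out an array outside the contrast, or filtering dim genes, leaves the change itself as it was. Other changes were not followed in this way. Members called in the difference between the models were 1, and 0 with the Y-linked level or the replicate block (Etv4 0.75, adjusted p = 0.0699), and 0 to 3 without 1 array. Members called in GFD-Smo minus GFD-Ptch were 3, and 2 to 4 in all refits, with Dusp6 lost under the replicate block (0.62, adjusted p = 0.0868). In GFD-Smo minus NG-Smo they were 0 to 1 without 1 array, and in GFD-Ptch minus NG-Ptch 1 without the transplanted tumour and NG-Smo replicate 4. Same-numbered arrays had correlations of -0.278 to 0.086 between their deviations from the group means (16 pairs). Deviations within a group sum to 0, and those of the 2 GFD-Ptch arrays mirror each other. Whether the numbers pair the samples therefore cannot be told from these values.

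Counts over all genes moved more, and the cause was not tested. In GFD-Smo minus GFD-Ptch 3110 genes became 6809 with median centring, 5958 without those arrays and 997 to 4376 without 1 array. In GFD-Smo minus NG-Smo 1058 became 1722 without those arrays and 643 to 1553 without 1. In the difference between models 759 became 1204 with median centring, 159 with the Y-linked level, 417 with the replicate block, 1283 without those arrays and 248 to 1285 without 1. In NG-Smo minus NG-Ptch 208 became 34 with the replicate block, 1169 without those arrays and 75 to 384 without 1. In GFD-Ptch minus NG-Ptch 2 became 6 with quantile normalization, 14 with median centring, 0 with the Y-linked level or the replicate block, 689 without those arrays and 1 to 144 without 1. In GFI-Ptch minus GFD-Ptch 1 became 4 with quantile normalization, 0 with the Y-linked level or the replicate block, 64 without those arrays and 1 to 47 without 1. In GFI-Ptch minus NG-Ptch 0 became 4 with the filter on dim genes, 10 without those arrays and 0 to 8 without 1.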
